A study of Glycine max with 12 samples.

Results

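The comparison described here set seed coats of the defective isoline of the soybean cultivar Clark against seed coats of the standard Clark isoline when the seeds weighed 100 to 200 mg. Its members are all gene models (Glyma models, numbered by chromosome and order along it) for which both libraries hold a value, except the 53 models of a block on chromosome 13 that runs between Glyma13g11810 and Glyma13g12220. This leaves 78720 of the 78773 models of the series. Of these, 24227 models at 18154 loci had at least 5 RPKM (hits scaled to the length of the model and to the depth of the library) in either library, and ratios are given for these. The study sequenced seed coat RNA of 4 lines, defective and standard Clark and defective and standard Harosoy, at 50–100, 100–200 and 400–500 mg of fresh seed weight. Clark defective (CD) carries the net pattern trait, called Def, which was brought into Clark by repeated backcrossing and whose gene is not known, so no targeted gene can serve to check the labels. Clark standard (CS) is the recurrent parent, and both lines have the genotype i R T, with Def in addition in CD, and black seed coats. Each line and stage is 1 library made from seed coats dissected from pooled immature seeds, so no value in this comparison has a replicate and no test was made within the pair. The counting intervals given with some ratios cover the sampling of hits only and not the difference between plants or preparations.

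The seed coat is maternal tissue that surrounds and feeds the embryo, and in soybean it ends as a hard shell of palisade and hourglass cells with thick walls. Its walls hold cellulose, xyloglucan and pectin together with structural proteins rich in proline or glycine, which are cross-linked into the wall as cells stop growing. In the net pattern trait the seed coat cracks, and the cotyledons are exposed at maturity. In RNA of whole seed coats, fewer cells of a type and less RNA per cell cannot be told apart. Between 100 and 200 mg the seed is filling, and genes of early wall growth and of late maturation are both in transition.

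The CD library held 72.5 M hits on the models and the CS library 113 M hits, and the 12 libraries of the series held between 47.5 M hits and 113 M hits. At 5 RPKM a model of 1172 bases, the median length, had 425 hits in CD and 662 hits in CS. Both libraries were read at 75 bp, but the column headers carry a different tag for CD than for CS. CD has the same tag as Harosoy defective and Harosoy standard at this stage, and CS has another. The meaning of the tag is not given in the sources used here. What it stands for cannot be told apart from the genotype in the Clark pair. Models outside the chromosome 13 block took 97.8% of the hits in CD and 91.7% in CS. RPKM is scaled to all hits, so rescaling to the hits outside the block shifted every log2 ratio by -0.09.

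Most models differed little between the lines. The median log2 ratio of (RPKM + 1), defective over standard, was -0.00 over the 24227 models, and 95% of them lay between -0.77 and 0.98. At least 2-fold higher in CD were 736 models (3.04% of those tested) and at least 2-fold lower were 385 (1.59%). When both libraries were scaled to the hits outside the block, the split became 610 higher and 548 lower. That scaling shifted the ratios by -0.09 on the log2 scale, away from the median of -0.00 as deposited. Ratios were mostly moderate, with a median fold of 2.54 among the higher and 2.57 among the lower models. A ratio of 8-fold or more was reached by 14 higher and 25 lower models. In 75.4% of the higher and 87.0% of the lower models the higher of the pair's values was under 50 RPKM, while 31 higher and 13 lower models reached 500 RPKM.

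**Figure D1:**
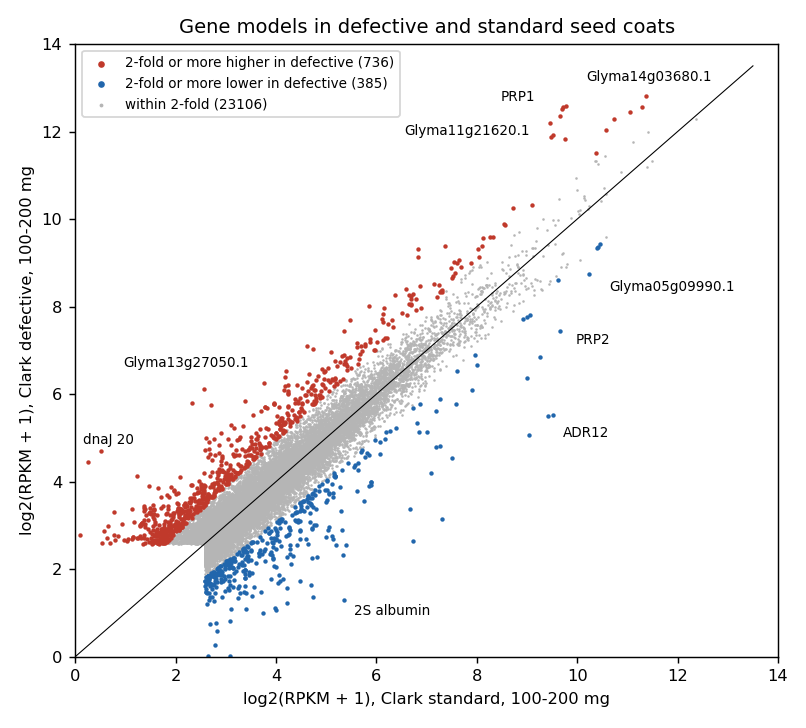
Each point is a gene model, with its level in Clark defective on the y axis and in Clark standard on the x axis, both as log2(RPKM + 1) at 100–200 mg, and the line marks equal levels. The 736 higher models reach into the most abundant transcripts, where PRP1 and the Glyma14g03660 to Glyma14g03720 group sit, and the 385 lower models include ADR12 and PRP2.

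Proline-rich proteins, which build and stiffen the wall, showed large differences in both directions. PRP1 (Glyma09g12200.1) had 6181 RPKM in CD against 874 RPKM in CS, a ratio of 7.08 with a counting interval of 7.03 to 7.12. A hydroxyproline-rich protein, Glyma11g21620.1, had 3641 RPKM in CD and 860 RPKM in CS, 4.23-fold higher. PRP2 (Glyma09g12260.1) went the other way with 174 RPKM in CD and 809 RPKM in CS, 4.66-fold lower. Its neighbour Glyma09g12250.1 had 114.6 RPKM in CD and 608 RPKM in CS, and Glyma15g23830.1 had 26.6 RPKM in CD and 144 RPKM in CS. PRP1 and PRP2 stand at Glyma09g12200 and Glyma09g12260, close to each other on chromosome 9, and differed in opposite directions. Over the 18 tested models annotated as proline-rich, 10 were higher and 4 lower, with a median log2 ratio of 1.05. Of these, the 6 that the study listed only for another stage or for Harosoy held 2 higher and 0 lower (median 0.85). Among 5 glycine-rich proteins, also structural, 3 were lower and 0 higher, with a median of -1.71. The 3 members listed only for another stage or for Harosoy had a median of 0.43, so the direction rests on the others. Among the lower ones, Glyma07g28610.1 had 3.85 RPKM in CD and 27.3 RPKM in CS, and Glyma02g42630.1 had 5.70 RPKM in CD and 30.9 RPKM in CS. Glyma02g42610.1, a glycine-rich wall protein that differed less, had 325 RPKM in CD and 166 RPKM in CS.

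These lists come from annotations in the study's tables, which were drawn up from models that differed in these same libraries, so the direction of a list is not independent evidence. Of the 24227 tested models, 1374 are in these tables. The 974 of them that were listed only for another stage or for Harosoy held 107 higher (10.99%) and 42 lower (4.31%), with a median log2 ratio of 0.07.

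Fasciclin-like and other arabinogalactan proteins, glycoproteins of the wall and cell surface, were higher in 19 of 23 models and lower in 0, with a median log2 ratio of 1.26. All 19 higher models were listed by the study for this comparison. The 4 members listed only for another stage or for Harosoy held 0 higher and 0 lower, with a median of 0.61. The fasciclin-like protein Glyma03g09120.1 had 129 RPKM in CD and 25.7 RPKM in CS. The more abundant FLA7 (Glyma14g00830.1) had 947 RPKM in CD and 372 RPKM in CS. The member with the lowest ratio was arabinogalactan peptide 22 (Glyma07g09600.1), at 19.2 RPKM in CD and 30.7 RPKM in CS. Expansins, which loosen walls, and extensins numbered 15 with 6 higher and 2 lower (median 0.78), and PRP1 and PRP2 are among them by annotation. The 8 members listed only for another stage or for Harosoy held 1 higher and 0 lower (median 0.56). The expansin with the lowest ratio, Glyma10g24120.1, had 58.4 RPKM in CD and 153 RPKM in CS.

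Among enzymes that cut and remodel wall polymers, 3 lists had medians above 0, and their share of lower models was near the 1.59% over all tested models. Glucanases and xylanases were higher in 12 of 22 models and lower in 1, with a median of 0.96. The 11 members listed only for another stage or for Harosoy held 2 higher and 0 lower (median 0.38). The glucan endo-1,3-beta-glucosidase Glyma05g28700.1 had 77.2 RPKM in CD and 23.6 RPKM in CS. Pectin modifying enzymes and their inhibitors were higher in 11 of 29 models and lower in 0 (median 0.58). The 21 members listed only elsewhere held 3 higher and 0 lower (median 0.16). A pectin methylesterase inhibitor, Glyma06g47740.1, had 7.12 RPKM in CD and 1.47 RPKM in CS. Xyloglucan endotransglucosylases, which cut and rejoin xyloglucan, were higher in 4 of 25 and lower in 0 (median 0.54). The 22 members listed only elsewhere held 1 higher and 0 lower (median 0.38). The highest ratio in the whole list was that of Glyma13g39710.1, with 9.37 RPKM in CD and 1.97 RPKM in CS. Models annotated as peroxidases, of which the class III enzymes cross-link wall polymers, were mostly within 2-fold, with 4 of 14 higher and 1 lower (median 0.18). The most abundant of them, peroxidase 42 (Glyma17g01720.1), had 5007 RPKM in CD and 5256 RPKM in CS.

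Among small secreted proteins and proteins of surface lipids, the lists differed in how many members were higher. All 7 tested models annotated like the self-incompatibility protein S1, a small secreted protein that stops self pollen in poppy, were higher, with a median of 1.86. The 3 listed only for another stage or for Harosoy had a median of 1.86 too. Of the S1-like models, Glyma08g46790.1 had 82.4 RPKM in CD and 17.1 RPKM in CS. Dirigent proteins, which guide the coupling of phenolic radicals, and thaumatin-like proteins were higher in 7 of 10 and lower in 0 (median 1.29). The 3 members listed only elsewhere held 0 higher and 0 lower (median 0.23). The dirigent-like Glyma12g10390.1 had 351 RPKM in CD and 116.7 RPKM in CS. GDSL lipases, which cleave lipid esters, were higher in 6 of 7 and lower in 0 (median 1.23). Of the 2 members listed only elsewhere, 1 was higher (median 0.64). Lipid transfer and lipid binding proteins, which carry lipids across walls, were split, with 8 of 21 higher and 4 lower (median 0.68). The 7 members listed only elsewhere held 0 higher and 0 lower (median 0.47). DIR1 (Glyma20g39270.1), a lipid transfer protein of systemic defence signalling in Arabidopsis, had 636 RPKM in CD and 113 RPKM in CS, 5.65-fold higher. The lipid transfer protein Glyma10g39170.1 had 2.32 RPKM in CD and 21.3 RPKM in CS, 9.17-fold lower. Cysteine-rich peptides and defensins, which act against microbes and in signalling, were higher in 6 of 10 and lower in 2 (median 1.12), while the 3 members listed only elsewhere had a median of -0.54. The defensin-like Glyma05g33200.1 was among the lower models, with 54.1 RPKM in CD and 192 RPKM in CS.

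**Figure D2:**
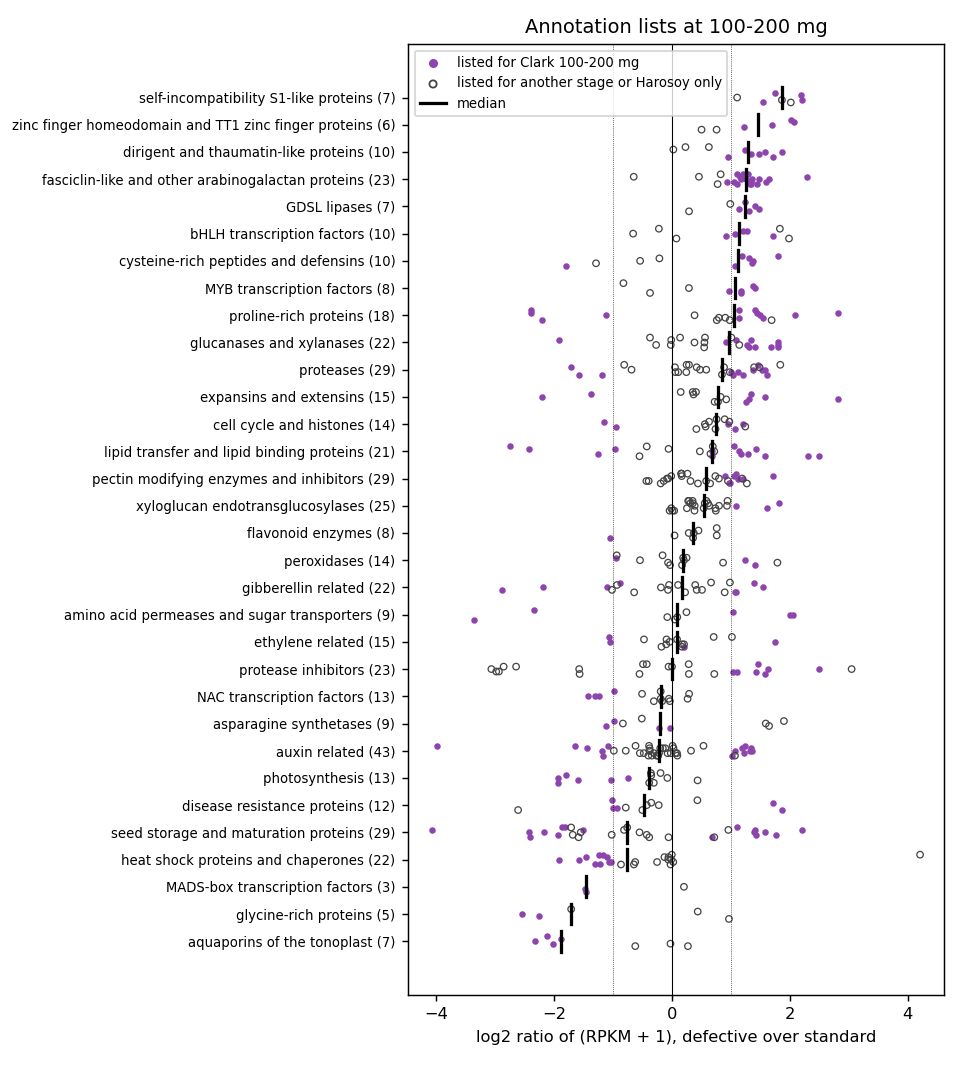
Each row is an annotation list with its number of tested models, each point is a model with its log2 ratio of (RPKM + 1), defective over standard, and the black bar is the median of the list. Filled points are models that the study's tables list for Clark at 100–200 mg, and open points are models listed only for another stage or for Harosoy. Medians run between -1.89 for aquaporins and 1.86 for S1-like proteins, and the dotted lines mark 2-fold.

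Storage proteins and other transcripts of seed maturation differed in both directions, with more models lower than higher. Of 29 tested models in this list 13 were lower, 7 higher and 9 within 2-fold, with a median of -0.76. Their summed level was 2906 RPKM in CD and 2215 RPKM in CS, so the sum was higher in CD while the median ratio was below 0. The 2S albumin model Glyma12g34160.1, also annotated as a glycinin subunit, had 1.46 RPKM in CD and 40.2 RPKM in CS. This is 27.6-fold lower, with a counting interval of 22.1 to 35.0. A second 2S albumin model, Glyma13g36400.1, had 67.0 RPKM in CD and 239 RPKM in CS. The vicilin-like Glyma10g03390.1 had 6.45 RPKM in CD and 38.7 RPKM in CS. In the same list the highest ratio belonged to Glyma07g17030.1, a model with a beta-conglycinin annotation, with 13.4 RPKM in CD and 2.13 RPKM in CS. Storage proteins are made mainly in the embryo, but membership of this list goes by annotation alone. Glyma07g17030.1 fell with seed weight in both lines, in CS between 26.7 RPKM at 50–100 mg and 0.112 RPKM at 400–500 mg. Whether traces of embryo tissue differed between the seed coat preparations was not tested. The 42 models with cotyledon or embryo annotations summed to 781 RPKM in CD and 844 RPKM in CS, and the 34 with seed coat annotations to 15192 RPKM in CD and 10881 RPKM in CS. The seed coat list takes in PRP1, at 6181 RPKM in CD and 874 RPKM in CS, a wider gap than that between its sums. The higher seed coat sum in CD therefore rests on that model. None of either list was at 0 in both libraries, and in the cotyledon or embryo list 12 of 25 tested models were lower and 6 higher.

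Aquaporins of the vacuole membrane, which are water channels, were lower in 4 of 7 models and higher in 0 (median -1.89). The list also took in 2 aquaporins of the plasma membrane by annotation, and its 3 members listed only elsewhere had a median of -0.03. Glyma09g28930.1, an alpha-type channel, had 1.12 RPKM in CD and 9.65 RPKM in CS. Among 9 amino acid permeases and sugar transporters, 3 were higher and 2 lower (median 0.09), and the highest and the lowest ratios were far apart. The amino acid permease Glyma04g38640.1 had 1.60 RPKM in CD and 25.7 RPKM in CS, 16.1-fold lower. Its relative Glyma06g16350.1 had 2.22 RPKM in CD and 15.3 RPKM in CS. Models named after RUPTURED POLLEN GRAIN, an Arabidopsis sugar exporter, were higher. Glyma05g25180.1 had 36.2 RPKM in CD and 8.003 RPKM in CS. Glyma08g08200.1 of the same name had 45.3 RPKM in CD and 10.6 RPKM in CS. Of 9 asparagine synthetases, which load nitrogen into asparagine, 3 were higher and 2 lower (median -0.21). The sign turned in the 5 listed only for another stage or for Harosoy, with 3 higher, 0 lower and a median of 1.59.

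Proteases were higher in 12 of 29 models and lower in 3 (median 0.84). The 17 members listed only for another stage or for Harosoy held 3 higher and 0 lower (median 0.42). The xylem serine proteinase Glyma04g02460.2 had 434 RPKM in CD and 189 RPKM in CS, 2.30-fold higher. The cysteine proteinase Glyma20g32460.1 had 34.0 RPKM in CD and 114.4 RPKM in CS. Protease inhibitors were divided, with 8 of 23 higher and 7 lower (median -0.00). The 16 members listed only for another stage or for Harosoy held 1 higher and all 7 lower models (median -0.52). The division therefore follows which comparison a model was listed for. Cysteine proteinase inhibitor 5 (Glyma15g12210.1) had 53.0 RPKM in CD and 5.55 RPKM in CS, 9.56-fold higher. The Bowman-Birk inhibitors, small seed proteins that block trypsin and chymotrypsin, stood at the other end. Glyma16g33400.1 had 2.10 RPKM in CD and 24.96 RPKM in CS, and Glyma09g28700.1 had 1.35 RPKM in CD and 17.6 RPKM in CS.

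Auxin and gibberellin genes showed no common direction. The auxin list held 9 of 43 higher and 7 lower (median -0.22). ADR12 (Glyma10g35870.1), a transcript known in soybean for falling after auxin is given, had 45.2 RPKM in CD and 729 RPKM in CS. It was 16.1-fold lower, with a counting interval of 15.4 to 16.9. The neighbouring model Glyma10g35840.1, of unknown function, had 32.4 RPKM in CD and 523 RPKM in CS. Both models may share reads, since a read could be counted on several models. The GH3 model Glyma05g21680.1, of a family that conjugates auxin to amino acids, had 2.06 RPKM in CD and 8.63 RPKM in CS. In the gibberellin list 4 of 22 were higher and 6 lower (median 0.16). The GAST1 homologue Glyma04g02660.1 had 1222 RPKM in CD and 421 RPKM in CS. The gibberellin-regulated Glyma20g26730.1 had 17.3 RPKM in CD and 135 RPKM in CS. Ethylene genes were higher in 2 of 15 and lower in 2 (median 0.08).

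The medians of transcription factor families lay on both sides of 0, and no difference between families was tested. For members listed only for another stage or for Harosoy they were -0.38 for MYB, 0.07 for basic helix-loop-helix, -0.17 for NAC and 0.20 for MADS-box models, so the signs of MYB and MADS-box rest on members listed for this comparison. MYB models were higher in 5 of 8 and lower in 0 (median 1.07), and 4 of the higher ones are annotated MYB86 or MYB160. Glyma20g22230.1, a MYB86 model, had 32.0 RPKM in CD and 11.5 RPKM in CS. Basic helix-loop-helix models were higher in 7 of 10 and lower in 0 (median 1.13), with Glyma01g02390.1 at 27.7 RPKM in CD and 6.25 RPKM in CS. The list of zinc finger homeodomain proteins and TT1 zinc finger proteins held 4 of 6 higher and 0 lower (median 1.46), and its remaining members are 2 laccases with a similar annotation. TT1, a zinc finger protein needed for seed coat cells and pigment in Arabidopsis, had 9.84 RPKM in CD and 1.59 RPKM in CS at Glyma13g01720.1. At Glyma14g35140.1 it had 9.55 RPKM in CD and 1.60 RPKM in CS. NAC models, a family with many senescence and stress factors, were lower in 4 of 13 and higher in 0 (median -0.19). Of 3 MADS-box models 2 were lower and 0 higher (median -1.46), with Glyma07g08820.1 at 1.84 RPKM in CD and 6.93 RPKM in CS.

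Heat shock proteins and chaperones, which refold proteins under stress, were lower in 11 of 22 models and higher in 1 (median -0.76). Among them, 10 were listed for this comparison, and the other 12 held 1 lower and 1 higher with a median of -0.06. HSP90 (Glyma09g24410.1) had 5.43 RPKM in CD and 23.3 RPKM in CS. The higher one, Glyma08g11580.1, is described with its neighbours further on. Photosynthesis models were lower in 5 of 13 and higher in 0 (median -0.39), and 3 of the lower ones carry the annotation photosystem II protein D1, a chloroplast gene product. Disease resistance models were higher in 2 of 12 and lower in 4 (median -0.47). Cell cycle and histone models were higher in 6 of 14 and lower in 2 (median 0.74), with cyclin d3 (Glyma10g40990.1) at 12.3 RPKM in CD and 4.77 RPKM in CS. Flavonoid enzymes, which make seed coat pigment and tannin, were nearly all within 2-fold, with 0 of 8 higher and 1 lower (median 0.36), the lower one being Glyma15g40940.1, annotated as an oxidase homologue of ethylene synthesis and counted in the ethylene list too. Leucoanthocyanidin dioxygenase (Glyma11g03010.1) had 59.0 RPKM in CD and 43.0 RPKM in CS.

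Several of the largest ratios belonged to models with no known function. Glyma13g27050.1 had 68.7 RPKM in CD and 4.90 RPKM in CS, 14.04-fold higher. Glyma06g44380.1, which carries no annotation in the tables, had 54.5 RPKM in CD and 4.04 RPKM in CS. Glyma19g36440.1, annotated as unknown, had 25.1 RPKM in CD and 0.435 RPKM in CS, 57.7-fold higher with a counting interval of 26.1 to 159. On the lower side Glyma13g26340.1 had 7.83 RPKM in CD and 157 RPKM in CS, and Glyma13g26330.1 had 5.22 RPKM in CD and 105 RPKM in CS. The calmodulin-binding protein Glyma06g15410.1, of a family that reads calcium signals, had 22.2 RPKM in CD and 181 RPKM in CS. Glyma09g26670.1, also of unknown function, had 0.0147 RPKM (1 hit) in CD and 7.43 RPKM (786 hits) in CS. The ratio of standard over defective, 504, has a counting interval of 90.3 to 19949, so its size is not known. Clark standard had 2.22 RPKM of Glyma09g26670.1 at 50–100 mg and 10.9 RPKM at 400–500 mg. Every library of the other lines, Harosoy standard included, had 0.0273 RPKM or less, so Clark standard was the line that stood apart. Both strictosidine synthase models, a family that joins precursors of alkaloids in other plants, were higher. Glyma17g09110.1 had 338 RPKM in CD and 95.8 RPKM in CS, and Glyma05g07630.1 had 312 RPKM in CD and 105 RPKM in CS.

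The course of these models in the standard line was taken from Clark standard at 50–100 and 400–500 mg, libraries that are not part of the pair. Models with at least 2-fold more (RPKM + 1) at 50–100 mg than at 400–500 mg are called early here, and the reverse late. Early models made up 53.5% of the 736 higher models (394), against 11.4% of all tested models. Late models made up 43.9% of the 385 lower models (169), against 9.36% of all. Only 45 higher models were late and 31 lower models were early. Neither class was met by 297 higher and 185 lower models. These shares depend on the fold, since with a 4-fold course 37.2% of the higher models were early, against 5.12% of all, and 23.9% of the lower models were late, against 2.36% of all. Reads at 100–200 mg were 75 bp from a GAII instrument and those at the other stages 100 bp from a HiSeq instrument, so stage and platform cannot be told apart wherever stages are set beside each other.

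**Figure D3:**
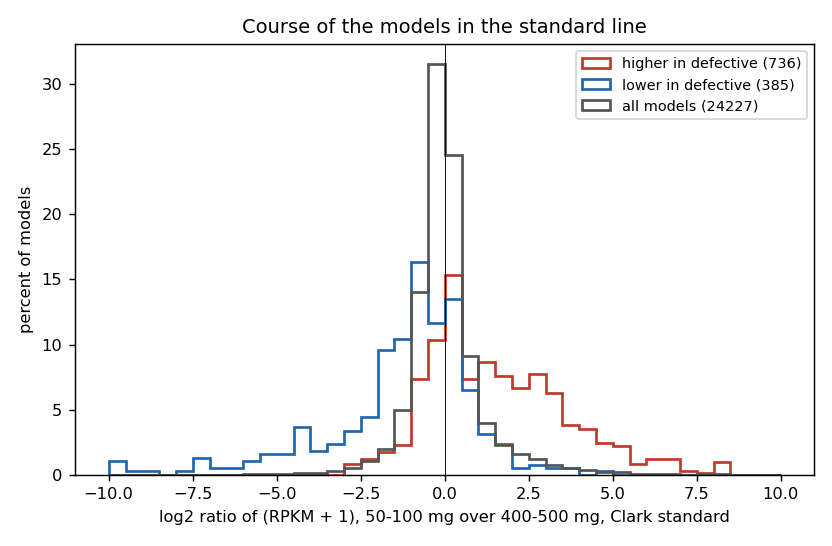
The curves are histograms, in percent of models, of the log2 ratio of (RPKM + 1) at 50–100 mg over 400–500 mg in Clark standard, for the 736 models higher in Clark defective at 100–200 mg, the 385 lower models and all 24227 tested models. The higher set extends to the right (median 1.20) and the lower set to the left (median -0.80), while the median of all models is -0.07.

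The same held when the models were grouped by their course first. The 2759 early models had a median log2 ratio of 0.28 in the pair, with 14.3% higher and 1.12% lower. The 2267 late models had a median of -0.19, with 1.99% higher and 7.45% lower. Among the 566 models that were 8-fold early, 497 had a ratio above 0 and the median was 0.52. Among the 186 models that were 8-fold late, 46 had a ratio above 0 and the median was -0.51. With early and late taken from Harosoy standard instead, the medians for 2-fold were 0.29 over 2954 early and -0.22 over 2058 late models.

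Set beside the standard line at 50–100 mg, the 394 higher early models stood at a median of 0.45 in CD and -0.77 in CS on the log2 scale, with -2.71 in CS at 400–500 mg. The 169 lower late models stood at 0.06 in CD and 1.43 in CS, with 2.29 in CS at 400–500 mg. These models were chosen by the difference within the pair, so the gap between CD and CS is given as a description. Of the 736 higher models, 166 (22.6%) in CD and 445 (60.5%) in CS lay between the levels of the early and the late standard library. Over all tested models these shares were 38.6% in CD and 48.9% in CS. At least 2-fold above both were 270 of the 736 higher models in CD (36.7%) and 53 in CS. In the lower set, 54 of 385 models were at least 2-fold below both in CD and 1 in CS, and 48 were at least 2-fold above both in CD and 99 in CS. Over all tested models 4.73% were above both in CD and 3.54% in CS, and 0.458% were below both in CD and 0.244% in CS.

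**Figure D4:**
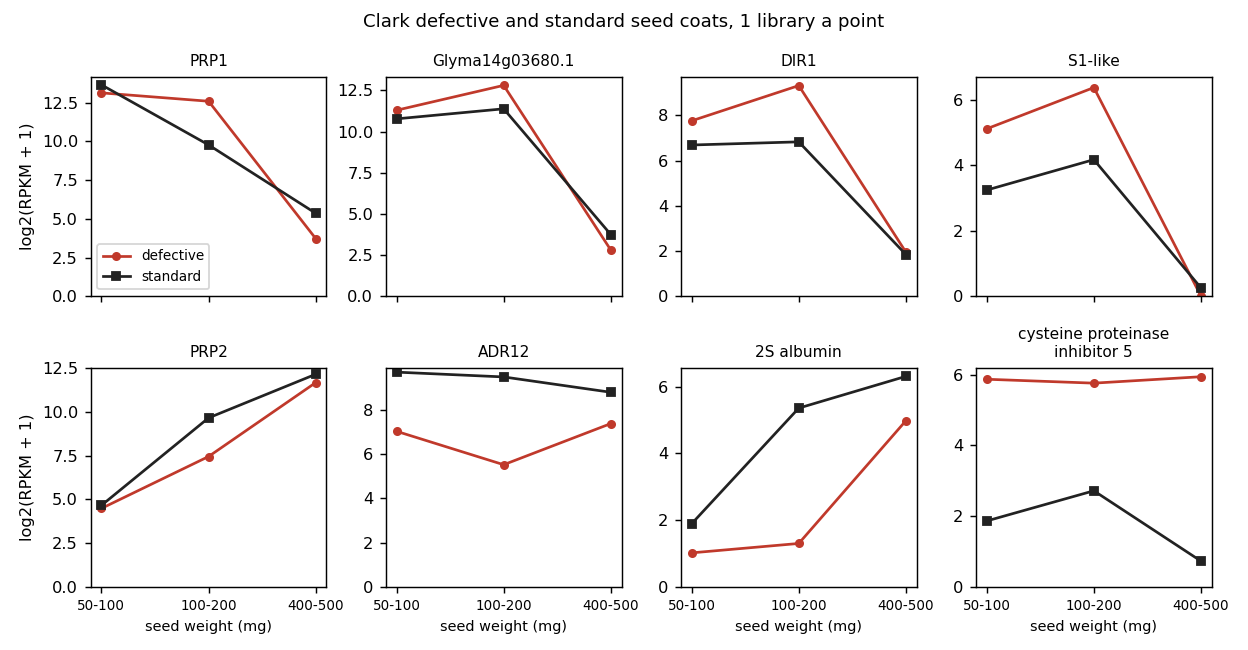
Each panel is a gene, with log2(RPKM + 1) against the 3 seed weight ranges, red circles for Clark defective and black squares for Clark standard, 1 library a point. PRP1 is within 2-fold at 50–100 mg (8989 RPKM in defective, 12889.8 RPKM in standard) and apart at 100–200 mg, and ADR12 and cysteine proteinase inhibitor 5 differ by at least 2-fold at every stage.

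The profiles of single genes show both kinds of model. PRP1 had 8989 RPKM at 50–100 mg, 6181 RPKM at 100–200 mg and 12.2 RPKM at 400–500 mg in CD. In CS it had 12889.8, 874 and 39.9 RPKM at these stages. PRP2 had 21.3, 174 and 3292 RPKM in CD at the rising weights, and 24.1, 809 and 4584 RPKM in CS. Both genes were within 2-fold at the first stage and apart at the second. Glyma14g03680.1, with 2506, 7144 and 5.96 RPKM in CD and 1745, 2663 and 12.4 RPKM in CS, had its highest value at 100–200 mg in both lines. Glyma13g27050.1 had 825, 68.7 and 0.0516 RPKM in CD, against 865, 4.90 and 2.44 RPKM in CS.

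The Harosoy pair is the only other defective and standard pair of this stage and shares no library with the Clark pair. Of the 736 models higher in Clark, 288 (39.1%) were at least 2-fold higher in Harosoy defective too, where 4.93% of the 24227 models were, and 28 were lower. Of the 385 lower models, 193 (50.1%) were lower in Harosoy as well, where 5.85% of the 24227 were, and 12 were higher. Over all models with at least 5 RPKM in either Harosoy library, 5.79% were higher and 8.51% lower. A ratio above 0 in Harosoy was seen for 580 of the higher models (78.8%), against 45.0% of all tested models, and a ratio below 0 for 294 of the lower models (76.4%), against 54.9% of all. Some differences were larger in Harosoy. PRP1 had 5890.2 RPKM in Harosoy defective and 162 RPKM in Harosoy standard, and PRP2 had 8.68 RPKM in Harosoy defective and 3438 RPKM in Harosoy standard. For the glycine-rich Glyma07g28610.1 the values were 0.0512 RPKM in Harosoy defective and 416 RPKM in Harosoy standard. The remaining 420 higher and 180 lower models were within 2-fold or under 5 RPKM in Harosoy. Whether the ratios differ between the backgrounds could not be tested with 1 library a side.

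The other Clark pairs repeated few of these differences. At 50–100 mg, 89 of the 736 higher models were again higher and 31 lower, against 498 higher and 203 lower among all 24227, and against 2.71% higher and 1.03% lower over the models with at least 5 RPKM in that pair. Of the 385 lower models 22 were lower and 50 higher at that stage. At 400–500 mg, 77 of the higher models were higher and 16 lower, and 35 of the lower models were lower and 8 higher. Among all 24227 models, 240 were higher and 188 lower at 400–500 mg. Over the models with at least 5 RPKM in that pair, 1.12% were higher and 1.96% lower. Past 2-fold the same way at all 3 stages were 11 higher models at 11 loci and 12 lower models at 9 loci. Cysteine proteinase inhibitor 5 (Glyma15g12210.1) had 57.3, 53.0 and 60.3 RPKM in CD at the rising weights, against 2.62, 5.55 and 0.648 RPKM in CS. In Harosoy at 100–200 mg its levels were 25.1 RPKM in the defective and 27.3 RPKM in the standard line, so Clark standard was the line that stood low. ADR12 had 131, 45.2 and 167 RPKM in CD and 848, 729 and 449 RPKM in CS. The amino acid permease Glyma04g38640.1 had 3.52, 1.60 and 4.34 RPKM in CD and 12.2, 25.7 and 40.1 RPKM in CS. The clock gene GIGANTEA (Glyma10g36600.1), with 12.3 RPKM in CD and 32.4 RPKM in CS at 100–200 mg, and an annexin model (Glyma13g26960.1), of a family of calcium-dependent membrane proteins, with 14.2 RPKM in CD and 58.7 RPKM in CS, were among the lower ones. Among the higher ones were 5 models annotated as unknown with similar values, which may share reads. Glyma02g27050.1, Glyma03g06720.1, Glyma04g16080.1, Glyma05g05920.1 and Glyma06g38690.1 had 7.73 to 9.42 RPKM in CD and 1.59 to 1.93 RPKM in CS.

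Differing models were spread over all 20 chromosomes. The share of higher models ran between 1.73% on chromosome 20 and 4.26% on chromosome 18, and that of lower models between 0.74% on chromosome 4 and 2.66% on chromosome 1. In 13 places at least 3 neighbouring expressed loci were past 2-fold in the same direction, 10 of them higher and 3 lower, with 48 loci in all. The longest was a row of 6 abundant loci, Glyma14g03660 to Glyma14g03720, annotated as lipid binding, formin-like or coat assembly proteins or as unknown. In it, Glyma14g03680.1 had 7144 RPKM in CD and 2663 RPKM in CS, and Glyma14g03720.1 had 6015 RPKM in CD and 2505 RPKM in CS. Ratios in this row were alike, between 2.40 and 2.93. Other higher rows held 3 unknown models (Glyma11g27300 to Glyma11g27320), 3 FLA11 models (Glyma12g07430 to Glyma12g07490) and TT1 with 3 unknown neighbours (Glyma13g01680 to Glyma13g01720). The lower rows included 4 loci of mainly Bowman-Birk inhibitors (Glyma09g28700 to Glyma09g28730) and 3 loci of other or no annotation (Glyma13g29620 to Glyma13g29650). The remaining lower row held 4 loci (Glyma20g28550 to Glyma20g28660), of which only Glyma20g28650 and Glyma20g28660 are annotated as beta-conglycinin. Several rows are made of close copies, among which reads may be shared.

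A stretch of chromosome 8 stood out when all 3 Clark pairs were viewed together, a view chosen after the values were seen. At 18105 expressed loci on numbered chromosomes, 173 (0.956%) had a log2 ratio of at least 0.4 in 1 direction at every stage. Rows of such loci were 2 or 3 loci long in 6 places and 9 loci long in 1, Glyma08g11460 to Glyma08g11660. Their direction in the 3 Clark pairs follows from how the row was chosen. Log2 ratios lay between 0.72 and 3.83 at 50–100 mg, 0.69 and 4.21 at 100–200 mg, and 0.49 and 4.44 at 400–500 mg. The 12 loci on either side had medians of 0.01, 0.24 and 0.07 at these stages. In Harosoy at 100–200 mg the ratios of the 9 loci lay between -0.45 and 0.87. The model with the largest log2 ratio in the whole Clark pair lies here. It is Glyma08g11580.1, a chloroplast dnaJ chaperone, with 16.5, 20.9 and 27.5 RPKM in CD at the rising weights and 0.229, 0.187 and 0.313 RPKM in CS. Harosoy defective had 19.03 RPKM of it and Harosoy standard 23.9 RPKM at 100–200 mg. The cytochrome P450 71D10 model Glyma08g11570.1 next to it had 9.35 RPKM in CD and 1.20 RPKM in CS, against 10.4 RPKM in Harosoy defective and 13.3 RPKM in Harosoy standard. For both models the low library was Clark standard. The heat shock factor model Glyma08g11460.1 at the other end had 24.3 RPKM in CD and 6.26 RPKM in CS, against 5.04 RPKM in Harosoy defective and 7.22 RPKM in Harosoy standard, so here Clark defective was the high one.

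**Figure D5:**
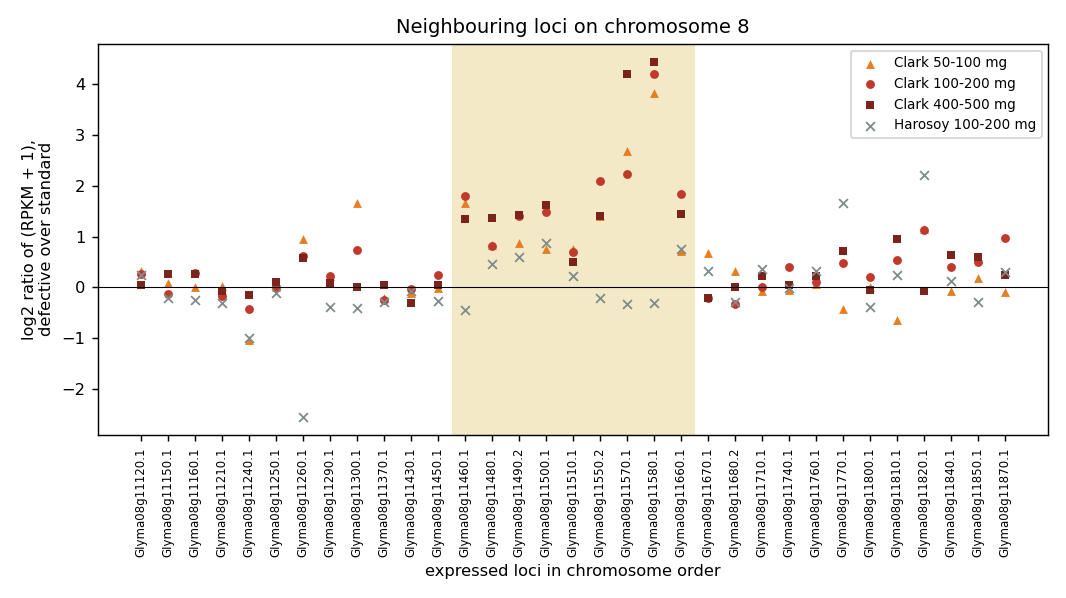
The x axis lists 33 expressed loci in chromosome order and the y axis gives the log2 ratio of (RPKM + 1), defective over standard, in each Clark pair and in Harosoy at 100–200 mg. The 9 shaded loci were chosen for ratios of at least 0.4 in all 3 Clark pairs, and Harosoy (crosses) stays between -0.45 and 0.87 there.

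A part of the lower set depended on a high value in the CS library alone. In 41 of the 385 lower models (10.6%) the CS value at 100–200 mg was at least 2-fold above each of the other 11 libraries of the series. These models were short, with a median length of 291 bases against 1395 over all tested models, and 7 of them are in the study's tables. Glyma13g26340.1 is one of them, with 157 RPKM in CS and 9.95 RPKM or less in each other library. In the same way CD was at least 2-fold above each other library in 40 of the 736 higher models. Without these 41 models 344 lower models remained. Standing 2-fold above every other library was not particular to CS at this stage, since the number of such models among 31125 ran between 0 and 310 over the 12 libraries.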

How the data were processed

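Seed coats were dissected from immature seeds sorted by fresh weight, and 1 library per line and stage was sequenced. Bowtie was named in the submitters' processing notes, with no version. The authors aligned reads of 75 bp (100–200 mg) or 100 bp to the gene models, allowing 3 mismatches and 25 alignments, and deposited RPKM values, used here unchanged. A read could be counted on several models, so close copies share reads. Hits were recovered from the RPKM steps, which were whole for 71434 of 71441 expressed models, tested on simulated data with known hits. Intervals of ratios are exact conditional binomial intervals at 95% and cover counting error only. Shares of models are given without intervals, since models are not replicates. A model was called at 5 RPKM in either library and a 2-fold ratio. Log2 ratios used a pseudocount of 1 RPKM. Named models were the 12 largest log2 ratios each way, the 5 largest RPKM differences each way, the models of the study's selected tables, the 2 extremes at each end of 32 annotation lists, the 4 largest opposite changes in Harosoy and all members of rows of neighbours. Others were named after their values were seen: Glyma14g00830.1, Glyma17g01720.1, Glyma11g03010.1, Glyma12g10390.1, Glyma05g28700.1, Glyma10g36600.1, Glyma13g26960.1, Glyma10g03390.1, Glyma08g11460.1, Glyma15g40940.1 and the 5 similar unknown models. Members and lists were chosen with earlier results of these data known. One annotation table was held only in part and served for annotations alone. The authors' p-values were not used. Alternatives were other minimum levels, a 3-fold ratio, other pseudocounts, rescaling, 1 model per locus and the block kept. Python 3.11.15, numpy, pandas, scipy and statsmodels were used.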

Additional observations from a re-analysis of the deposited data

Results flagged for a closer look

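A group of 4 Bowman-Birk inhibitor models differed in opposite directions in the 2 backgrounds at 100–200 mg, and the difference was not tested because each pair has 1 library a side. Glyma16g33400.1 had 2.10 RPKM in Clark defective and 24.96 RPKM in Clark standard (log2 ratio -3.07), against 21.2 RPKM in Harosoy defective and 0.620 RPKM in Harosoy standard (log2 ratio 3.77). For Glyma09g28700.1 the log2 ratio was -2.98 in Clark, with 3.34 in the Harosoy pair. For Glyma14g26410.1 it was -2.94 in Clark, with 3.23 in the Harosoy pair, and for Glyma09g28730.1 it was -2.86, with 3.24. The last 3 had similar values in the libraries compared and may share reads. In all, 40 models at 37 loci were past 2-fold in opposite directions, 28 of them higher in Clark and lower in Harosoy. These 28 were 3.80% of the models higher in Clark, while 5.85% of all tested models were lower in Harosoy. The other 12 were 3.12% of the models lower in Clark, while 4.93% of all tested models were higher in Harosoy. Opposite directions were thus no more frequent in either set than the shares over all tested models.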

How the results depend on the processing

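No paired analysis was possible because each side of the comparison has 1 library, and for the same reason no replicate could be left out. The number of higher and lower models depended on the minimum level and the fold. It was 1819 higher and 1098 lower at 1 RPKM, 471 and 222 at 10 RPKM, 7663 and 5925 with no minimum, and 186 and 127 at 3-fold. With the block kept 423 models were lower. Rescaling to the hits outside the block took the share of higher among all calls to 52.7%, against 65.7% as deposited. The share of early models among the higher was 37.2% with a 4-fold course (all models 5.12%) and 60.3% at 10 RPKM (all models 12.2%), and that of late models among the lower was 23.9% with a 4-fold course (all models 2.36%). Any ratio of the same sign in Harosoy was found for 78.8% of the higher and 76.4% of the lower models, where 45.0% of all models were above 0 and 54.9% below. Leaving out the 41 models high in the CS library alone, an alternative chosen after seeing the data, left 344 lower models. All 41 are lower models by definition, so this number was fixed in advance. Leaving out those past 2-fold the same way in all 3 Clark pairs, also chosen after seeing the data, left 725 higher and 373 lower, again by definition. Restricted to models listed for another stage or for Harosoy, 5 lists changed sign: glycine-rich proteins (median 0.43), cysteine-rich peptides and defensins (-0.54), MYB (-0.38) and MADS-box factors (0.20), and asparagine synthetases (1.59). Aquaporins came to -0.03, heat shock proteins to -0.06 and basic helix-loop-helix factors to 0.07. With 1 library a side, a difference between the lines cannot be told apart from one between plants, preparations or runs.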
